A study of Mus musculus with 20 samples.

Results

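Iron uptake, storage and heme genes were examined in tissue given as terminal ileum from mice fed with or without tryptophan (Trp), in the presence or absence of antibiotics. The set was a given list of 10 genes, Tfrc, Slc40a1, Slc11a2, Cybrd1, Heph, Hmox1, Fth1, Ftl1, Alas1 and Alas2, out of 35204 genes in the deposited table of estimated counts. All 10 passed the filter on low values and were among the 16306 genes tested. RNA came from 20 female C57BL/6 mice, with 5 mice in each of 4 groups, whose group diets began when they were 7 weeks old. CD mice were fed Baker's amino acid diet as the control diet for 3 weeks, and TDD mice received the same diet without Trp. The same diets were given to CD+ABX and TDD+ABX mice, whose drinking water held ampicillin, vancomycin, metronidazole, neomycin and gentamycin (ABX), with sucrose added for taste. According to the study, animals ate the control diet before the groups were split, and ABX was started before the change to TDD. CD and TDD mice received no antibiotics and are called SPF mice, for specific pathogen-free. The study's diet table lists the same share of mineral premix in both diets. Each sample was a short piece of whole intestinal wall, cut near the cecum according to the study's methods, so epithelium, lamina propria, muscle and blood were measured together. In such bulk tissue, fewer cells of a type and less RNA per cell cannot be told apart.

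Dietary iron is reduced at the surface of enterocytes by the ferrireductase Cybrd1 and carried into the cell by the divalent metal transporter Slc11a2. It is stored in ferritin, which is built from the heavy chain Fth1 and the light chain Ftl1, or leaves the cell through the exporter ferroportin (Slc40a1) with help from the ferroxidase hephaestin (Heph). Uptake of this kind is known mainly from the duodenum, and ferroportin is also used by macrophages that recycle iron. Transferrin receptor (Tfrc) takes up transferrin-bound iron from the blood side and is known to be high in dividing cells. Heme is made from a first step run by Alas1 in most tissues and by Alas2 in red cell precursors, and it is broken down by heme oxygenase (Hmox1), which releases iron.

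Several of these messages carry iron-responsive elements (IREs), short hairpins that bind the iron regulatory proteins when iron is low. Binding in the 5' untranslated region (UTR) is known to block translation, and binding in the 3' UTR of Tfrc to protect the message from decay. Transcripts of GENCODE M21 (GRCm38) were searched on the sense strand for C, 5 bases, CAGTG, any base and 5 bases, where the 5 bases on each side could pair with each other, with G-T pairs allowed. A match was found in 5 of the 10 genes, against 0.81% of 55341 genes and 0.628% of 141767 transcripts. The search was run because such genes are known for this element, so the matches are a description and no finding of enrichment. The hairpins are printed 5' to 3' as DNA letters, because they are the feature the iron regulators are known to read. Capitals mark the loop, and 6 flanking bases are shown on each side of the match.

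Fth1 5' UTR: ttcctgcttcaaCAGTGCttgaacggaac
Ftl1 5' UTR: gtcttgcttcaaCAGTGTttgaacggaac
Slc40a1 5' UTR: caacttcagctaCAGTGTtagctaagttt
Alas2 5' UTR: ttggttcgtcctCAGTGCagggcaacagg
Tfrc 3' UTR, element A: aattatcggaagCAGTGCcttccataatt
Tfrc 3' UTR, element B: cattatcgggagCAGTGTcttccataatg
Tfrc 3' UTR, element C: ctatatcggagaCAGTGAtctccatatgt
Tfrc 3' UTR, element D: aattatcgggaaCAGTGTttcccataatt

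The Fth1 hairpin lay at chr19:9982732-9982760 on the plus strand, in the main transcript Fth1-201. That of Ftl1 lay at chr7:45459779-45459807 on the minus strand, and that of Slc40a1 at chr1:45925465-45925493 on the minus strand. The Alas2 hairpin crossed an exon junction, and its span of chrX:150547458-150552149 on the plus strand includes the intron. The Tfrc hairpins followed each other on the plus strand at chr16:32631219-32631247, chr16:32631598-32631626, chr16:32631663-32631691 and chr16:32631710-32631738. Tfrc was the only member with several matches. No match was found in Slc11a2, Cybrd1, Heph, Hmox1 or Alas1, which says only that these letters with these pairs are not in their annotated transcripts.

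Per length, in TPM (the authors' transcript levels scaled for length and depth, summed over a gene's transcripts), ferritin led by far. The mean level over the 20 mice was 2073 TPM for Fth1 and 1199 TPM for Ftl1. Alas1 followed at 115 TPM, Heph at 82.8 TPM, Tfrc at 47.1 TPM and Slc11a2 at 24.1 TPM. Slc40a1 at 3.28 TPM, Hmox1 at 1.6 TPM and Cybrd1 at 1.17 TPM were low, and Alas2 was at 0.258 TPM, with 2 to 31 counts per mouse. The level of Alas1 depends on how reads were split, since the short transcript Alas1-211 (460 bases) held 51.7% of its TPM but 15.8% of its estimated counts. In CPM, the counts relative to library size after TMM scaling, which are used from here on, Alas2 varied most between mice, with a coefficient of variation of 20.4% to 93.8% within groups. That of Slc11a2 was 5.25% to 8.27%, with the smallest maximum of the set. Since few counts lie behind Alas2, its values carry the largest error of the set.

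Depth ranged from 36676963 to 58662617 counts per mouse. The tissue label, ileum, was checked against its markers. The bile acid genes Fabp6 and Slc10a2, which define the distal ileum, were near 0 in CD mice, at 1.17 ± 0.969 and 2.36 ± 1.02 CPM (SD, n = 5). The other 4 of the 6 ileal markers were well above that, between 65.3 CPM (Slc51b) and 962 CPM (Cubn) in CD mice. Of the proximal markers, Gata4 (100.3 CPM) and Lct (2579 CPM) were expressed there too, while Onecut2 was near 0, at 1.93 ± 1.12 CPM. The position sampled may differ from the one stated, and this was not tested. The levels of the uptake genes are those of the pieces as sampled. With ABX on CD, Fabp6 rose to 41.5 ± 59.4 CPM and Slc10a2 to 39.5 ± 27.2 CPM (q = 0.00431 and q = 7.59e-05), so these ileal genes moved with ABX, and their part in the results on ABX was not tested. CD mouse 2 stood apart from its group. Its summed enterocyte markers were 20010 CPM, against 36050 to 42190 CPM in the other CD mice, and it had the lowest Heph, Fth1 and Ftl1 of its group. TDD mouse 1 also stood apart, with the lowest summed proliferation markers (352 CPM against 503 to 568 CPM), macrophage markers (143 CPM against 177 to 210 CPM) and Tfrc and Slc40a1 of its group. CD+ABX mouse 5 lay at the other end of its group, with 46270 CPM of enterocyte markers against 29800 to 35480 CPM. Summed B cell and follicle markers ran from 3.22 to 160 CPM between single mice, with overlap between all groups. Of the 5 smooth muscle markers, 0 passed in any comparison by edgeR (0 with an unadjusted p under 0.05). Their sum varied widely between pieces, from 439 to 2311 CPM in CD mice alone and from 563 to 1839 CPM in TDD+ABX mice.

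The comparisons ask what Trp deficiency and ABX each did to these genes, and whether the effect of the diet depended on ABX. Calls rest on 1 edgeR fit of the 20 mice (quasi-likelihood) and on p-values adjusted over all genes tested after Benjamini and Hochberg (q). "Rose" and "fell" are used for q under 0.05, and a gene was called changed if it also differed at least 2-fold. The comparisons share control mice, so their values stand side by side and are not independent of each other.

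The iron exporter Slc40a1 and the ferritin heavy chain Fth1 fell with TDD in SPF mice, while the other 8 genes did not pass, so that 2 of the 10 genes were at q under 0.05, against 14.4% of all genes tested. None of the 10 reached 2-fold with q under 0.05 by edgeR, against 1.84% of all genes, although 3 had an unadjusted p under 0.05. DESeq2 also called 0, and limma-voom called 1, Alas2. In ABX-treated mice, TDD moved 0 of the 10 genes past q under 0.05, against 1.76% of all genes. There, 2 of the 10 (Slc40a1 and Fth1) had an unadjusted p under 0.05 by edgeR, and DESeq2 and limma-voom gave 0 at q under 0.05. The share of all genes past 2-fold as well was 0.331% in ABX-treated mice, and 0 of the 10 reached it. The median log2 fold change of the 10 genes was -0.09 in SPF and -0.13 in ABX-treated mice, where the median of all genes was 0.01 and 0.00.

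ABX moved more of the set than the diet did by count, a difference that was not itself tested. On CD, Tfrc, Alas1 and Slc11a2 rose with ABX and Slc40a1 and Fth1 fell, which gives 5 of 10 genes against 12.8% of all genes. On TDD, Tfrc and Alas1 rose and Slc40a1, Fth1 and Hmox1 fell, again 5 of 10, against 15.5% of all genes. No member passed both q under 0.05 and 2-fold, whereas 2.3% of all genes did so on CD and 1.67% on TDD. DESeq2 and limma-voom gave 0 as well, and 6 of the 10 genes had an unadjusted p under 0.05 on each diet by edgeR. The median log2 fold change of the set was -0.16 on CD and -0.02 on TDD, beside 0.00 and -0.03 for all genes.

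**Figure D1:**
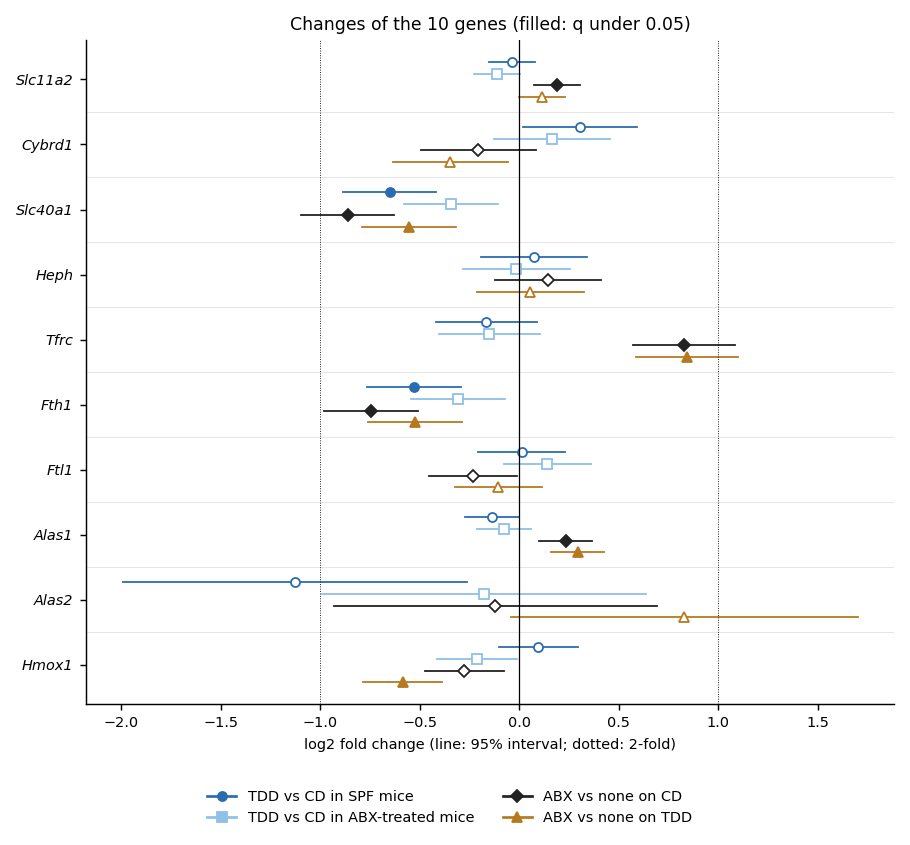
Log2 fold changes of the 10 genes (x axis) in the comparisons of diet and of ABX, with lines for 95% intervals, filled symbols for q under 0.05 and dotted lines at 2-fold. Slc40a1 and Fth1 lie to the left of 0 in all 4 comparisons, and Tfrc lies to the right only in the comparisons of ABX, at 0.83 and 0.84.

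The uptake genes changed little. Slc11a2 ran from 41.3 to 50.9 CPM in CD mice, 40.95 to 46 CPM in TDD mice, 47.75 to 54.65 CPM in CD+ABX mice and 43.8 to 50.3 CPM in TDD+ABX mice. All neighbouring groups overlapped. It rose with ABX on CD (log2 fold change 0.19, q = 0.0398, standard error 0.06). That call was lost in 7 of 20 fits with 1 mouse left out and in 6 of 10 other settings, so it rests on a narrow margin. On TDD the change was 0.12 (q = 0.193), and the diet gave -0.04 and -0.11. Cybrd1 had means of 4.73, 5.85, 4.1 and 4.6 CPM in CD, TDD, CD+ABX and TDD+ABX mice. It did not pass in any comparison, and its largest difference, -0.35 with ABX on TDD (95% interval -0.64 to -0.06, q = 0.115), passed without TDD mouse 1, at q = 0.0351. With TDD in SPF mice it was 0.31 (q = 0.18), and without CD mouse 2 it was 0.43 (q = 0.0267).

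Slc40a1 was highest in CD mice and lowest in TDD+ABX mice. CD mice 1 to 5 had 11.3, 11.7, 11.6, 10.3 and 15.1 CPM, and TDD mice had 6.9, 8.04, 7.58, 8.09 and 7.63 CPM. CD+ABX mice had 7.03, 6.86, 5.75, 6.91 and 6.49 CPM, and TDD+ABX mice had 4.32, 4.32, 5.13, 6.84 and 5.46 CPM. Every CD mouse lay above every mouse of the other groups, TDD mice overlapped CD+ABX mice by a narrow range, and TDD+ABX mouse 4 lay within the CD+ABX range. With TDD in SPF mice, Slc40a1 went from 12 ± 1.83 to 7.65 ± 0.479 CPM (SD, n = 5) and fell by 36.3% (log2 fold change -0.65, standard error 0.12, q = 0.00133). With ABX on CD it fell by 45% (-0.86, standard error 0.12, q = 0.000274), and with ABX on TDD by 31.8% (-0.55, standard error 0.12, q = 0.00616). Without TDD mouse 1 the diet gave -0.62 in SPF mice (q = 0.00418). These 3 calls held in all 20 fits with 1 mouse left out and in the 10 other settings. In ABX-treated mice the diet gave -0.34 (95% interval -0.58 to -0.11, q = 0.172), and q was 0.0451 without TDD+ABX mouse 4. The interaction of diet and ABX was 0.31 (95% interval -0.02 to 0.64, q = 0.621), so the effect of the diet was not shown to depend on ABX.

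Macrophage markers moved with Slc40a1. Of the 11 macrophage markers, 6 fell and 1 (Cd163) rose with TDD in SPF mice, where 14.4% of all genes passed. With ABX, 8 fell on CD and 5 fell on TDD, where 12.8% and 15.5% of all genes passed. These shares of all genes are also the background of the counts of other markers below. Their summed level was 220.5 to 276.4 CPM in CD mice, 143 to 210 CPM in TDD mice, 165 to 182 CPM in CD+ABX mice and 137 to 158 CPM in TDD+ABX mice. None of the 11 was at 0. Csf1r, the receptor that macrophages need for survival, was 53.1 ± 4.99 CPM in CD mice and 35.6 ± 6.5 CPM in TDD mice, and 30.6 ± 4.95 and 24.4 ± 3.72 CPM with ABX (SD, n = 5 each). The order of its group means was that of Slc40a1, as it was for C1qc, Cx3cr1 and Timd4. Adgre1, Cd68, C1qa, C1qb, Mrc1, Lyve1 and Cd163 had other orders. Adgre1, for instance, was at 9.04, 5.29, 5.82 and 4.45 CPM in CD, TDD, CD+ABX and TDD+ABX mice. The part of these markers in the change of Slc40a1 was not tested.

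Heph, the partner of ferroportin in enterocytes, showed no such pattern. It ranged from 172 to 389 CPM over the 20 mice, with group means of 282, 297, 312 and 308 CPM in CD, TDD, CD+ABX and TDD+ABX mice and overlap between all of them. The largest difference was 0.14 with ABX on CD (95% interval -0.12 to 0.41, q = 0.56), and it was 0.02 without CD mouse 2.

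Tfrc rose with ABX on both diets. CD mice 1 to 5 had 107, 110.6, 115, 109.6 and 121 CPM, and CD+ABX mice had 208, 203, 231, 187.5 and 168 CPM. TDD mice had 74.5, 107, 99.9, 116 and 103 CPM, and TDD+ABX mice had 223, 209.8, 136, 184 and 146.5 CPM. Every ABX-treated mouse lay above every SPF mouse, while the diets overlapped within each setting. The increase was 1.77-fold on CD (log2 fold change 0.83, standard error 0.13, q = 0.000698) and 1.79-fold on TDD (0.84, standard error 0.13, q = 0.000699), and all 20 fits with 1 mouse left out and the 10 other settings kept both calls. The diet gave -0.17 in SPF and -0.15 in ABX-treated mice (q = 0.43 and q = 0.63), the former being -0.08 without TDD mouse 1, and the interaction was 0.02 (95% interval -0.34 to 0.37, q = 0.99). Since Tfrc is known to be high in dividing cells, the 8 proliferation markers stand beside it. None of them passed with ABX on CD by edgeR (0 with an unadjusted p under 0.05), where their summed level was 521 to 705 CPM without and 433.5 to 721 CPM with ABX. With ABX on TDD, 2 of the 8 (Mcm6 and Pcna) rose, and the sum went from 352 to 568 CPM to 517 to 768 CPM.

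**Figure D2:**
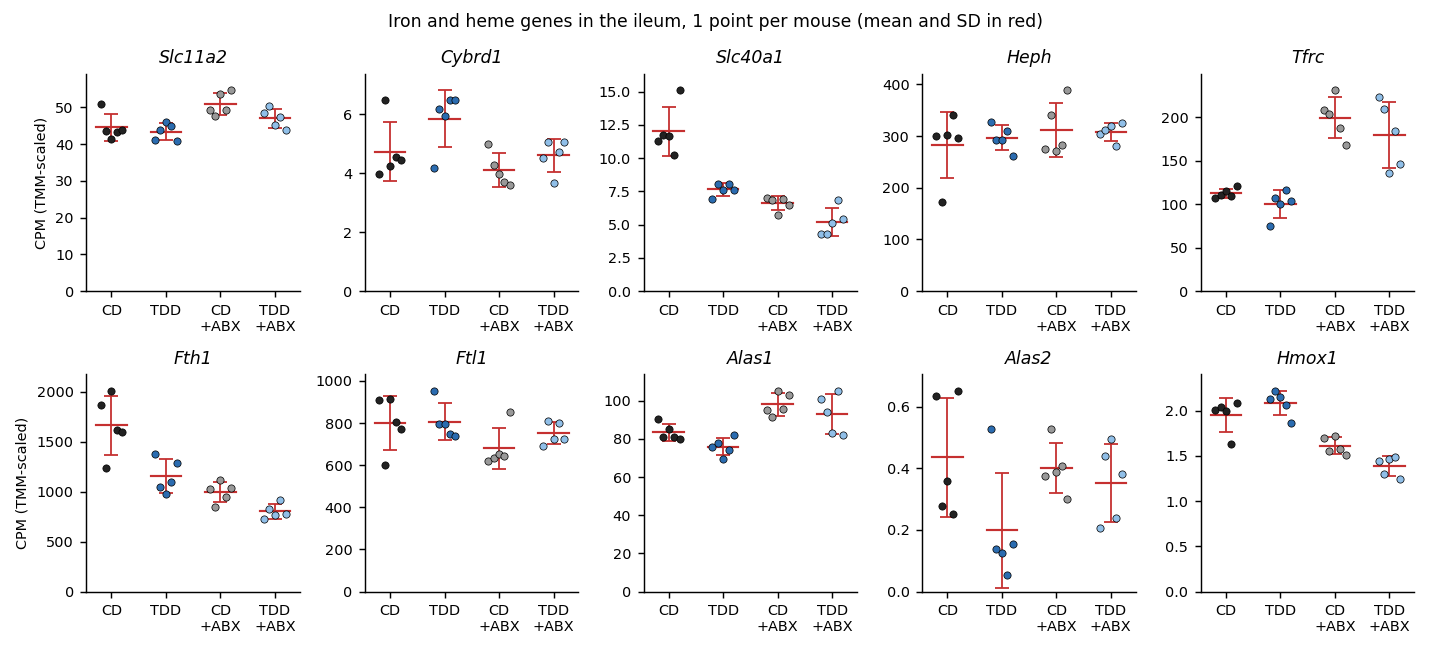
CPM of each of the 10 genes (y axis, each panel from 0) in the 4 groups, with 1 point per mouse and the mean and SD in red. The ABX-treated mice of Tfrc, at 136 to 231 CPM, lie above all SPF mice, at 74.5 to 121 CPM, and the CD mice of Slc40a1, at 10.3 to 15.1 CPM, lie above all others.

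The ferritin chains parted. Fth1 fell in the same comparisons as Slc40a1, whereas Ftl1 did not pass in any. CD mice 1 to 5 had 1862, 1238, 2010, 1615 and 1595 CPM of Fth1, and TDD mice had 1379, 1041, 978 and 1094 CPM in mice 1 to 4 and 1285 CPM in mouse 5. CD+ABX mice had 1026, 848, 1111, 942 and 1037 CPM, and TDD+ABX mice had 727, 824, 768.5, 918 and 774.5 CPM. CD and TDD mice overlapped only through CD mouse 2, and SPF and ABX-treated mice did not overlap on either diet. Fth1 fell by 30.6% with TDD in SPF mice (log2 fold change -0.53, standard error 0.12, q = 0.00655) and by 40.3% with ABX on CD (-0.74, standard error 0.12, q = 0.000877). With ABX on TDD it fell by 30.5% (-0.53, standard error 0.12, q = 0.00823). Each of these calls held in all 20 fits with 1 mouse left out and in the 10 other settings. In ABX-treated mice the diet gave -0.31 (95% interval -0.54 to -0.07, q = 0.225), and the interaction was 0.22 (95% interval -0.11 to 0.55, q = 0.77).

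Ftl1 ranged from 599 to 955 CPM over the 20 mice. Its group means were 800.5 ± 129.8 CPM in CD, 807.5 ± 86.3 CPM in TDD, 681.5 ± 97.7 CPM in CD+ABX and 751 ± 52.3 CPM in TDD+ABX mice (SD, n = 5 each), and all groups overlapped. The largest difference was -0.23 with ABX on CD (95% interval -0.45 to -0.01, unadjusted p = 0.0516 by edgeR, q = 0.191). Without CD mouse 2, the mouse with few enterocyte markers, q was 0.0458. With TDD in SPF mice it was 0.01 (95% interval -0.21 to 0.23), and its sign turned without CD mouse 2, where it was -0.08.

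Hmox1, which breaks down heme, was low and fell with ABX on TDD. TDD mice 1 to 5 had 2.13, 2.22, 2.15, 2.06 and 1.87 CPM, and TDD+ABX mice had 1.45, 1.3, 1.47, 1.49 and 1.24 CPM. The groups did not overlap, and Hmox1 fell by 33.3% (log2 fold change -0.58, standard error 0.10, q = 0.00158), a call that all 20 fits with 1 mouse left out and the 10 other settings kept. On CD, means of 1.95 ± 0.185 and 1.61 ± 0.0919 CPM without and with ABX (SD, n = 5) gave -0.28 (95% interval -0.47 to -0.08, q = 0.079), and q was 0.039 without CD mouse 4. The diet gave 0.10 without ABX (q = 0.593) and -0.21 with it (q = 0.348), where CD+ABX and TDD+ABX mice did not overlap. Hmox1 was the single member with an unadjusted p under 0.05 for the interaction by edgeR (-0.31, 95% interval -0.59 to -0.03, q = 0.537). For the interaction, 0 of the 10 genes passed at q under 0.05 or with 2-fold in addition by edgeR, DESeq2 or limma-voom, against 0.0368% and 0.0245% of all genes by edgeR.

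Alas1, the general form of the enzyme for the first step of heme synthesis, rose with ABX on CD (log2 fold change 0.23, q = 0.031) and on TDD (0.29, q = 0.00915), with a standard error of 0.07 in both. CD mice 1 to 5 had 90.1, 80.9, 85.3, 80.9 and 79.8 CPM and CD+ABX mice 94.9, 91.2, 105.3, 95.7 and 103 CPM. TDD mice had 75.9, 77.7, 69.6, 74.2 and 81.9 CPM and TDD+ABX mice 100.8, 94, 82.9, 105.1 and 82.2 CPM. On neither diet did SPF and ABX-treated mice overlap, although the gap on TDD was under 1 CPM. On CD the call was lost in 5 of 20 fits with 1 mouse left out (CD mouse 3, 4 or 5, or CD+ABX mouse 3 or 5) with q up to 0.0781, and in 3 of 10 other settings. On TDD it held in all of them. The diet gave -0.14 in SPF and -0.08 in ABX-treated mice (q = 0.201 and q = 0.654), and the former was -0.24 on both TPM scales and passed there (q = 0.0274 and q = 0.0283).

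Alas2, the form of red cell precursors, was near the detection limit. CD mice 1 to 5 had 0.633, 0.279, 0.359, 0.252 and 0.652 CPM, and TDD mice had 0.527, 0.138, 0.124, 0.055 and 0.153 CPM. With ABX, levels were 0.302 to 0.527 CPM on CD and 0.207 to 0.496 CPM on TDD. TDD mice 2 to 5 lay below every other mouse and TDD mouse 1 lay among the CD mice. The diet gave -1.13 in SPF mice (standard error 0.44, 95% interval -1.99 to -0.26, q = 0.0964), which did not pass. Without TDD mouse 1 it was -1.82 (q = 0.00478), and ABX on TDD went from 0.83 (q = 0.213) to 1.53 (q = 0.0132). With ABX on CD the change was -0.12 (q = 0.9), and in ABX-treated mice the diet gave -0.18 (q = 0.885).

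Red cell transcripts stand beside Alas2, which itself passed in no comparison. All 4 globin genes among the erythroid markers fell with TDD in SPF mice, for instance Hbb-bs from 17.9 ± 4 to 8.76 ± 2.68 CPM (SD, n = 5; log2 fold change -1.03, q = 0.00804). Of the 5 erythroid markers tested, Epb42 alone did not pass (-0.23). Their summed level was 25 to 51 CPM in CD mice, 16 to 28.9 CPM in TDD mice, 28 to 47.2 CPM in CD+ABX mice and 23.6 to 52.2 CPM in TDD+ABX mice. TDD mouse 1 had both the most Alas2 and the highest sum of its group. In the other 3 groups, the mouse with the most Alas2 was not the one with the highest sum. CD mouse 5, with the most Alas2 of its group, had the highest sum but 1, at 45.9 CPM. CD+ABX mouse 2 and TDD+ABX mouse 3, which had the most Alas2, had sums of 31.5 and 30.8 CPM, the lowest but 1 of their groups. With 2 to 31 counts of Alas2 per mouse, such ranks carry a large counting error. The red cell genes Slc4a1, Rhag and Klf1 were under the filter, with at most 2, 3 and 15 counts in any mouse. With ABX on TDD, 3 of the 5 rose, and 0 of the 5 passed in the other comparisons by edgeR (0 with an unadjusted p under 0.05 for ABX on CD and for the diet in ABX-treated mice, and 4 for the interaction). The part of blood in the Alas2 values was not tested.

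**Figure D3:**
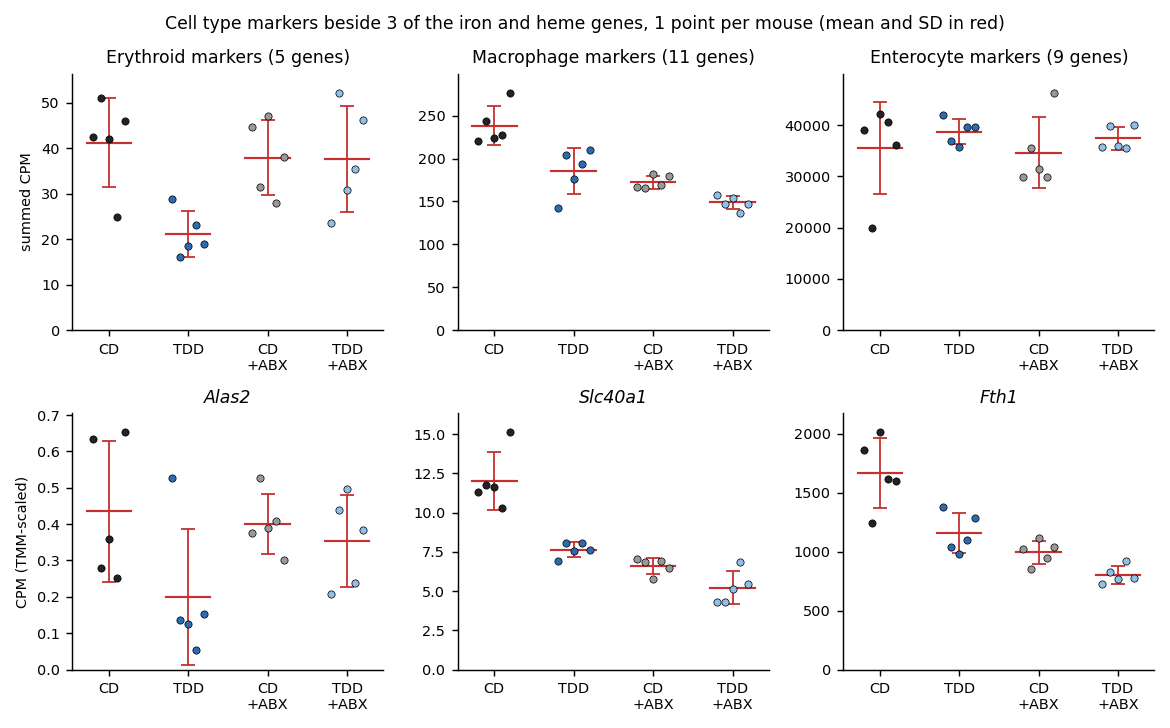
Summed CPM of erythroid, macrophage and enterocyte markers (top) and CPM of Alas2, Slc40a1 and Fth1 (bottom) in the 4 groups, with 1 point per mouse and the mean and SD in red. TDD mice have erythroid sums of 16 to 28.9 CPM, against 25 to 51 CPM in CD mice, the medians of the macrophage sums have the same order of groups as the means of Slc40a1, and CD mouse 2 lies apart at 20010 CPM of enterocyte markers.

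Enterocytes, the cells that absorb iron, did not lose their markers as a group. No enterocyte marker of 9 passed with TDD in either setting by edgeR (0 in SPF and 2 in ABX-treated mice had an unadjusted p under 0.05). With ABX, Anpep and Fabp2 rose and Apoa4 and Sis fell on both diets. Fabp2 went from 2848 to 6547 CPM on CD and Apoa4 from 6690 to 2192 CPM. These changes came with those of Tfrc, Slc40a1 and Fth1 under ABX, and their part in them was not tested. Slc40a1 and Fth1 also fell with TDD in SPF mice. There, the summed enterocyte markers overlapped, at 20010 to 42190 CPM in CD and 35640 to 41930 CPM in TDD mice. The wide spread in CD mice limits what the markers could show, and their part in these falls was not tested.

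The wider pathway was read from 71 further genes in 5 lists, of which 64 were tested. With TDD in SPF mice, 7 rose and 4 fell (17.2% of the 64, against 14.4% of all genes), and in ABX-treated mice 1 rose (1.56%, against 1.76%). With ABX, 7 rose and 3 fell on CD (15.6%, against 12.8%) and 13 rose and 6 fell on TDD (29.7%, against 15.5%). The first 3 of these shares were near those of all genes, and the same shares of all genes are the background of the counts for the single lists. The interaction gave 0 by edgeR, where 10 had an unadjusted p under 0.05. Of the 64, 2 with ABX on CD (Slc46a1 and Flvcr2) and 1 with ABX on TDD (Slc46a1) passed q under 0.05 and 2-fold. Of all genes, 2.3% and 1.67% did so.

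Among iron regulators, 13 of 18 listed genes were tested, and 2 passed with TDD in SPF mice, 0 in ABX-treated mice (1 had an unadjusted p under 0.05 by edgeR), 3 with ABX on CD and 4 with ABX on TDD. Hepcidin (Hamp), the iron hormone made mainly by the liver, had at most 17 counts in any mouse and was not tested. Epas1, which encodes HIF-2α and is known to drive iron transporter genes in enterocytes, rose with TDD in SPF mice from 50.8 ± 2.14 to 73.2 ± 6.28 CPM (SD, n = 5; 0.53, q = 0.00139) and fell with ABX on TDD to 51.5 ± 4.37 CPM (-0.51, q = 0.00286). Its relative Hif1a rose with TDD in SPF mice (0.53, q = 0.00285), with 0.41 in ABX-treated mice (q = 0.0542). The oxygen-sensing hydroxylase Egln3 rose with ABX on CD (0.72, q = 0.0188) and TDD (0.92, q = 0.00485). The former call was lost without CD mouse 5 or CD+ABX mouse 5, and with the groups compared fitted alone. Hfe, a partner of transferrin receptor, fell with ABX on both diets (-0.31, q = 0.0149, and -0.27, q = 0.027). The call on CD was lost with the groups compared fitted alone. That on TDD was lost in 7 of 20 fits with 1 mouse left out and in 4 of 10 other settings.

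In the list of other iron transport and storage genes, 5 of 19 passed with TDD in SPF mice, 0 in ABX-treated mice (2 had an unadjusted p under 0.05 by edgeR), 1 with ABX on CD and 5 with ABX on TDD. Slc46a1, known mainly as the intestinal folate transporter, was at 20.7 to 87.8 CPM in CD mice with CD mouse 2 lowest, 24.5 to 53.8 CPM in TDD mice, 21.8 to 31.1 CPM in CD+ABX mice and 11.5 to 28 CPM in TDD+ABX mice. It fell with ABX on CD (-1.40, q = 0.00659) and on TDD (-1.14, q = 0.0201), the latter lost in 4 of 20 fits with 1 mouse left out, and the diet gave -0.91 in SPF mice (q = 0.0537). The mitochondrial iron carrier Slc25a28 and the metal importer Slc39a14 rose with TDD in SPF mice (0.27, q = 0.00439, and 0.32, q = 0.0165). The call of Slc39a14 was lost without CD mouse 5 (q = 0.0646). Slc25a28 fell with ABX on TDD (-0.22, q = 0.0161), a call lost without TDD+ABX mouse 3 (q = 0.0597) and in 3 of 10 other settings. Pcbp1, a chaperone that hands iron to ferritin, rose with ABX on TDD (0.34, q = 0.00767).

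Of 13 further genes of heme synthesis, 2 passed with TDD in SPF mice (14.4% of all genes), 0 in ABX-treated mice (1.76% of all genes; 3 of the 13 had an unadjusted p under 0.05 by edgeR), 2 with ABX on CD and 3 with ABX on TDD. Uros, an enzyme of porphyrin ring closure, and Tmem14c, a mitochondrial porphyrin transporter, fell with TDD in SPF mice (-0.23, q = 0.00768, and -0.27, q = 0.0196). Each call was lost with the groups fitted alone, and that of Tmem14c also in 3 of 20 fits with 1 mouse left out. Uros rose with ABX on TDD (0.22, q = 0.0121). The mitochondrial glycine carrier Slc25a38 and the transporter Abcb10 rose with ABX on CD (0.32, q = 0.00875, and 0.26, q = 0.0184), the call of Abcb10 being lost in 2 of 20 fits with 1 mouse left out and with the groups fitted alone. Of 10 genes of heme breakdown and transport, 1 passed with TDD in SPF mice, 0 in ABX-treated mice (3 had an unadjusted p under 0.05 by edgeR), 1 with ABX on CD and 2 with ABX on TDD. Flvcr2, a transporter first described for heme, rose with ABX on CD, from 1.93 ± 0.636 to 5.12 ± 0.678 CPM (SD, n = 5; 1.41, q = 0.00729), and Flvcr1, a heme exporter, rose with ABX on TDD (0.68, q = 0.0128). Blvrb, a biliverdin reductase, fell with TDD in SPF mice (-0.26, q = 0.0323) and rose with ABX on TDD (0.27, q = 0.0274). These calls were lost in 6 and 4 of 20 fits with 1 mouse left out, and the former also with the groups fitted alone.

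Hmox1 is often counted among the Nrf2 targets, which are antioxidant genes. Of 9 other such genes, 3 rose with ABX on CD, where 12.8% of all genes passed, and 5 rose on TDD, where 15.5% passed, while none fell by edgeR. Gclc, which makes the glutathione precursor, rose with ABX on TDD (0.75, q = 0.000729) and with TDD in ABX-treated mice (0.63, q = 0.00925). Its call with ABX on CD (0.36, q = 0.0485) was lost in 14 of 20 fits with 1 mouse left out and in 5 of 10 other settings. Glutathione reductase (Gsr) rose with ABX on CD (0.66, q = 0.000903) and TDD (0.43, q = 0.0135). Txnrd1 rose with ABX on TDD (0.29, q = 0.0139), and the quinone reductase Nqo1 rose with TDD in SPF mice (0.45, q = 0.00949).

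**Figure D4:**
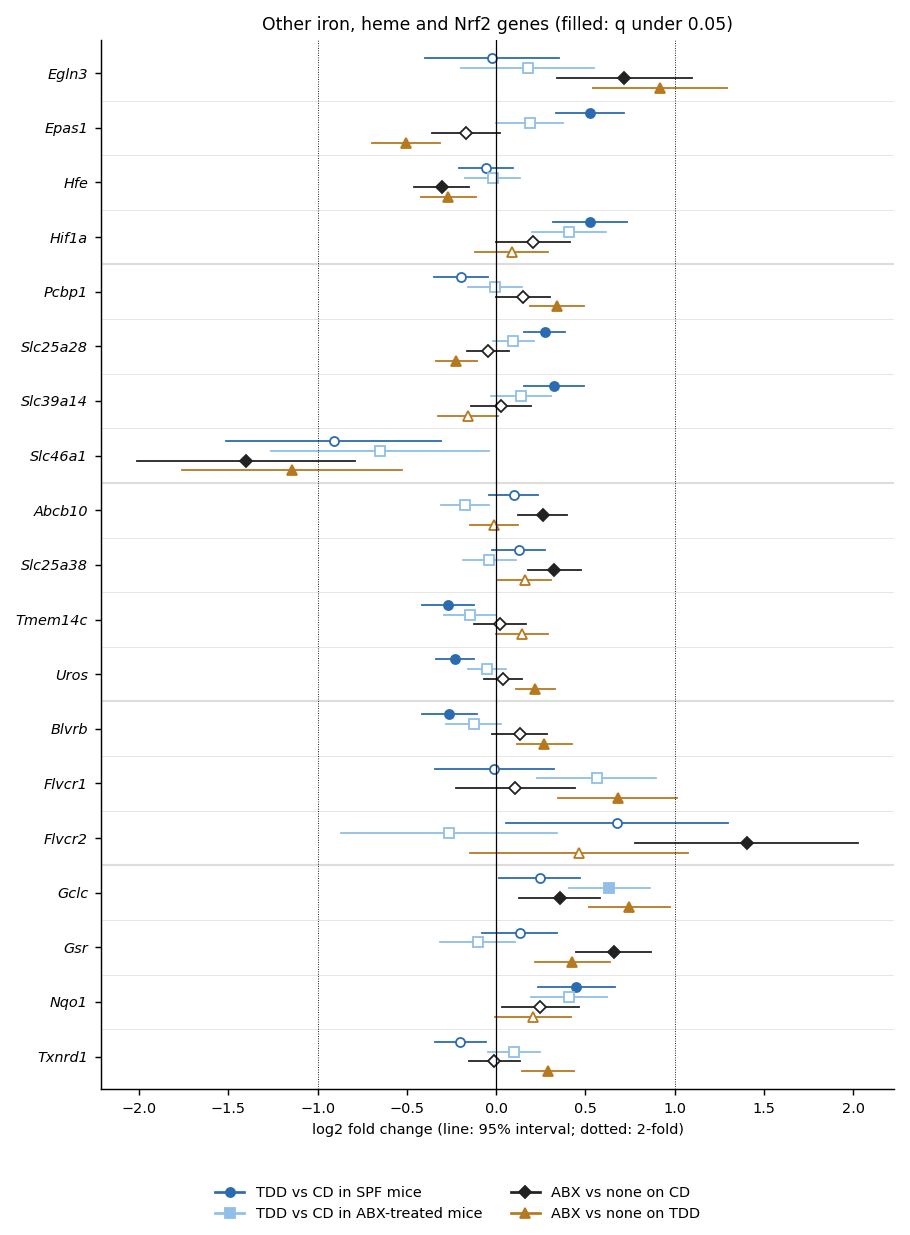
Log2 fold changes (x axis) with 95% intervals of the named genes of 5 further lists, separated by thicker lines, with filled symbols for q under 0.05 and dotted lines at 2-fold. Slc46a1 lies furthest to the left, at -1.40 with ABX on CD, and Flvcr2 furthest to the right, at 1.41.

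The genes most like each member at q under 0.05 in any comparison of diet or ABX, over the 20 mice, were sought among 11126 other genes with a mean of at least 5 CPM, by Pearson's r of log2 CPM. The mice fall into 4 groups, so a shared group difference alone gives a high r, and the values are a description. Slc40a1 was most like Arid3a (0.917), Emid1 (0.913) and Csf1r (0.91). For Fth1 these were Plin2 (0.927), a coat protein of lipid droplets, Slc46a1 (0.923) and Scamp5 (0.907). Tfrc was closest to Cog8 (0.916), Rbm10 (0.904) and Dpp9 (0.896), and Alas1 to Tysnd1 (0.878), Ptges2 (0.873) and Cog8 (0.864). For Hmox1 they were Acer2 (0.875), Rnase1 (0.858) and Mcoln2 (0.857), and for Slc11a2 they were lower, with Miga2 at 0.788, Upf1 at 0.785 and Tbc1d13 at 0.78.

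The share of each member's transcripts was read from the TPM per transcript. Tfrc-201, the coding transcript with all 4 hairpins, held 53.5% of the TPM of Tfrc, and Tfrc-204, a transcript with a retained intron and the same hairpins, held 40.7%. The share of Tfrc-201 was 42.5% to 59% in CD mice, 26.6% to 60.6% in TDD mice, 38.9% to 63% in CD+ABX mice and 45% to 73.9% in TDD+ABX mice. All groups overlapped, and the shares were not tested. Slc40a1-201, which holds the hairpin, made up 90.1% of Slc40a1, Ftl1-201 made up 96.9% of Ftl1, and Fth1-201 was the only transcript quantified for Fth1. Slc11a2 was split between Slc11a2-201 (44.9%) and 4 further transcripts with 25.2%, 12.9%, 9.86% and 5.39%. Alas1 was split between Alas1-211 (51.7%), Alas1-206 (35.3%) and Alas1-201 (5.57%). Alas1-201 is annotated as protein-coding and Alas1-206 is not, so the level of Alas1 is not that of the coding message alone. Alas2-202 and Alas2-201 held 68% and 28.5% of Alas2, with single mice from 0% to 100%, so that the few counts behind Alas2 do not tell these apart. Heph-201 held 93.8% of Heph, Hmox1-201 held 97.2% of Hmox1, and Cybrd1-201 was the only transcript quantified for Cybrd1.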

How the data were processed

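Poly-A RNA was sequenced from ileum of 20 mice, and the authors assigned reads to the mouse transcriptome with kallisto (version 0.44.0 per the labels), which splits reads that match several transcripts. Raw estimated counts of genes were deposited by the authors as 1 table, and files of single mice hold estimated counts and TPM of transcripts, the latter scaled by kallisto for length and depth. The genome builds named per the labels are GRCm38 and mm10. A deposited series table of TPM held the same values and was not used.

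Estimated counts were rounded to whole numbers, and TMM scaling, the quasi-likelihood test and Benjamini-Hochberg adjustment were run with edgeR 4.0.16 in R 4.3.3, with all 4 groups in 1 fit. A gene was tested if any mouse reached 0.5 CPM (16306 of 35204). The limits of 0.5 CPM, q under 0.05 and 2-fold are the study's, whose methods name iDEP but no test. Total counts ran from 36676963 to 58662617 per mouse, so genes at a few counts, such as Alas2, are measured with large counting error. Groups came from the sample labels. Standard errors are those of the fitted log2 fold changes, and intervals are 95% intervals. The same script was tested on simulated counts for TDD against CD in SPF mice. At q under 0.05 alone, 87 of 100 genes changed 2-fold and 98 of 100 changed 4-fold were recovered among 16094 genes. The changed genes were drawn from those with a mean above 1 CPM. The recovery thus says nothing of genes as low as Alas2 or of changes under 2-fold.

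Alternatives were RLE and upper-quartile scaling, DESeq2 1.42.0, limma-voom (limma 3.58.1), a filter that asks for 0.5 CPM in 5 mice, no filter, the groups compared fitted alone, the replicate number as a block, limma on log2(TPM + 1) and log2(TPM + 0.1), and 20 fits with 1 mouse left out. IREs were searched in GENCODE M21 transcripts, whose exons and coding parts gave the coordinates. The 10 genes, the further lists and the markers were chosen with earlier results of these data known. All 10 genes are named, and of each further list up to 4 genes with the smallest q under 0.05 in any comparison of diet or ABX. The 3 most similar genes are given for each member at q under 0.05 in any of these, and transcripts with at least 5% of a gene's TPM.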

Additional observations from a re-analysis of the deposited data

Results flagged for a closer look

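In a group of 5 mice, the highest or lowest value was singled out if its gap to the next mouse exceeded 0.71 of the range of the group (Dixon's 95% limit). Chance singles out about 1 in 20 groups, and 8 of 40 sets of a gene and a group were singled out here. CD mouse 2 was low in Heph, at 172 CPM against 296 to 340 CPM in the other CD mice, and high in Cybrd1, at 6.46 CPM against 3.97 to 4.54 CPM. TDD mouse 1 was low in Cybrd1, at 4.16 CPM against 5.92 to 6.49 CPM, and high in Ftl1, at 955 CPM against 740 to 797 CPM, and in Alas2, at 0.527 CPM against 0.055 to 0.153 CPM. CD mouse 1 was high in Slc11a2, at 50.9 CPM against 41.3 to 43.9 CPM. CD mouse 4 was low in Hmox1, at 1.63 CPM against 1.99 to 2.08 CPM. CD+ABX mouse 5 was high in Ftl1, at 855 CPM against 620 to 655 CPM.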

How the results depend on the processing

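Counts of the 10 genes at q under 0.05, or called with 2-fold in addition, were recomputed with 10 other settings (9 for the interaction) and with 1 mouse left out. With TDD in SPF mice, limma-voom called 1 gene, Alas2, and leaving out 1 mouse gave 0 to 1, the 1 without TDD mouse 1, while log2(TPM + 0.1) gave 4 genes at q under 0.05 in place of 2 and leaving out 1 mouse gave 2 to 3. With TDD in ABX-treated mice, leaving out 1 mouse gave 0 to 1 at q under 0.05. With ABX on CD, the replicate block, log2(TPM + 1) and log2(TPM + 0.1) gave 3 genes each in place of 5, and leaving out 1 mouse gave 3 to 5, the fewest without CD mouse 3 or 5 or CD+ABX mouse 3 or 5. With ABX on TDD, leaving out 1 mouse gave 0 to 1 called and 5 to 7 at q under 0.05, the most without TDD mouse 1. For the interaction, every setting gave 0.

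Small differences turned sign and passed in no setting. On the log2(TPM + 1) and log2(TPM + 0.1) scales, Ftl1 was at -0.0509 with TDD in SPF mice and 0.0041 with ABX on TDD on both, and Heph at 0.043 and 0.0435 with TDD in ABX-treated mice. Heph was at 0.0004 for the interaction on the former. With 1 mouse left out and TDD in SPF mice, Ftl1 ran from -0.0831 to 0.0658, Heph from -0.0675 to 0.1505 and Slc11a2 from -0.072 to 0.0141. Heph ran from -0.0634 to 0.0772 with TDD in ABX-treated mice and Alas2 from -0.2631 to 0.0838 with ABX on CD. For the interaction, Heph ran from -0.1659 to 0.0622 and Tfrc from -0.0738 to 0.1118.

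Over all genes, counts moved by over 1.5 times as follows. With TDD in SPF mice, 1411 genes in place of 2354 passed q when the groups were fitted alone, and log2(TPM + 1) called 140 in place of 300. With TDD in ABX-treated mice, 613 (DESeq2), 187 (no filter) and 119 (replicate block) in place of 287 passed q, and 98, 30 (replicate block) and 25 (log2(TPM + 1)) in place of 54 were called. Log2(TPM + 1) called 131 in place of 375 with ABX on CD and 98 in place of 272 on TDD. The interaction gave 0 to 134 in place of 6. With 1 mouse left out, the diet in ABX-treated mice gave 105 (without CD+ABX mouse 4) to 505 (without CD mouse 2) at q under 0.05 and 26 to 67 called, ABX on TDD gave 1402 (without TDD+ABX mouse 1) to 3198 (without CD mouse 2) and 173 to 427 called, and the interaction gave 0 to 33, so the shares of all genes printed beside the members move as well. For TDD in SPF mice and ABX on CD these counts stayed within 1.5 times.

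Replicate numbers did not pair the mice (5 of 30 pairs of same-numbered mice had a correlation of deviations over 0.1, median -0.03), and 7 of 30 correlated best with their own number. With the replicate block, 2 and 0 of the 10 genes were at q under 0.05 for the diet in SPF and ABX-treated mice, 3 and 5 for ABX on CD and TDD, and 0 for the interaction. The cause of these shifts was not tested. Depth limits Alas2, Hmox1 and Cybrd1, which had as few as 2, 52 and 144 counts in a mouse. Alas2 did not pass the filter of 0.5 CPM in 5 mice.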
